A study of Rattus norvegicus with 10 samples.

Results

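Nupr1, a stress gene, and 7 genes of the ATF4 and unfolded protein responses were followed in the liver of 10 rats, 1 array per rat. The genes were selected on results of this same comparison, so their values are given as a description with no test. Every probe set that the platform annotation assigns to exactly 1 of the 8 symbols was taken, which gave 10 probe sets (1 each for Nupr1, Ddit3, Atf3, Atf4, Asns, Xbp1 and Eif2ak3, and 3 for Trib3) out of 15859 in the table other than controls, or 8 of 9378 named genes. The rats were of strain CRL:WI (Han), aged 6 to 8 weeks. A vehicle group of 5 received deionized water, and 5 received RG3487 at 180 mg/kg, both by gavage at 5 ml/kg. RG3487 is known as a partial agonist of the nicotinic acetylcholine receptor encoded by Chrna7. Livers are labelled 24 h after dosing, whereas the series text names 2 h. Rats were housed in groups of 5, and if each cage held 1 treatment, cage and treatment cannot be told apart.

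In the integrated stress response, the kinases PERK (gene Eif2ak3), GCN2, PKR and HRI phosphorylate the translation factor eIF2, which slows general translation while the mRNA of the transcription factor ATF4 is translated more. ATF4 activates genes of amino acid supply such as Asns, and the stress regulators CHOP (gene Ddit3), Atf3, Trib3 and Nupr1. PERK is also a sensor of unfolded protein in the endoplasmic reticulum, where the sensors IRE1 and ATF6 run parallel branches, and IRE1 acts by splicing the mRNA of Xbp1. NUPR1 is a small chromatin protein induced by many kinds of cell stress. ATF4 is controlled largely at translation and XBP1 by splicing, so their total mRNA does not report their activity. The deposited table does not separate spliced from unspliced Xbp1.

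The promoter letters of these genes are shown first, since ATF4 dimers are known to bind a composite C/EBP-ATF element whose core reads TGATGNAA. RefSeq promoter sequences (build GRCr8) were matched for 7 of the 8 members, Atf3 being the exception, and the 250 bases before the gene start were searched on both strands. Nupr1 and Trib3 held this core, in both cases on the strand opposite to the gene, from 55 to 48 bases before the start in Nupr1 and from 21 to 14 in Trib3. It was present in 3.4% of the 33469 promoter windows searched the same way. Ddit3, Atf4, Asns, Xbp1 and Eif2ak3 did not have these letters in this window. Capitals mark the match, which reads TTGCATCA in Nupr1 and TTACATCA in Trib3 on the strand of the gene (5′ to 3′):

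Nupr1, chr1:190645902-190646151, minus strand: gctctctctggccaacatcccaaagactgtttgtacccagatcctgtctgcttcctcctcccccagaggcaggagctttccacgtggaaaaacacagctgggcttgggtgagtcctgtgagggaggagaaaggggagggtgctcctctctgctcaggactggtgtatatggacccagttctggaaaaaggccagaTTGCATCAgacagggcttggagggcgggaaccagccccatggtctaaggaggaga

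Trib3, chr3:161275534-161275783, minus strand: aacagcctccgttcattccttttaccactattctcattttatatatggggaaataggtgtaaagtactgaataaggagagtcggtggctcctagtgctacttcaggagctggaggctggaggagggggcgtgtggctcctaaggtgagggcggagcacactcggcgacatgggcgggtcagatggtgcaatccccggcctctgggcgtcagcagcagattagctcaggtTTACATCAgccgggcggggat

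Xbp1 was the 1 member with the ERSE, the element bound by ATF6 with NF-Y, from 65 to 47 bases before the start (capitals). It occurred in 0.0657% of the windows. The full cAMP response element TGACGTCA, in 1.59% of windows, and the XBP1 element TGACGTGG, in 0.52%, were in none of the 7. Ddit3 is printed beside Xbp1 because it stood with Nupr1 as a gene whose groups did not overlap, and it held none of the searched letters, hence no capitals. A match is a description of the letters and not of binding, which was not measured.

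Xbp1, chr14:84604373-84604622, plus strand: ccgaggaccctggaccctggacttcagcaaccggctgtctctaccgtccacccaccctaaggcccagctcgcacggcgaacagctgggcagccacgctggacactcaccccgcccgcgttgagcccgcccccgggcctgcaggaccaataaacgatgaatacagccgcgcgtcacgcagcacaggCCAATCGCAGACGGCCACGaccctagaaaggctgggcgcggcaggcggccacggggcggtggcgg

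Ddit3, chr7:65001445-65001694, plus strand: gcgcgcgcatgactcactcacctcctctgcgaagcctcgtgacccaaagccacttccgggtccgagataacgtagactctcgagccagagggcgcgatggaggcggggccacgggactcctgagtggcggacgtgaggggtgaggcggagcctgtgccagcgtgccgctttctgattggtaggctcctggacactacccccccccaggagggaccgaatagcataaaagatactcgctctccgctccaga

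All array values are MAS5 signals on a linear scale, and differences are of log2(signal + 16), RG3487 minus vehicle, with the standard error (SE) over 5 rats per group. Array mean signals lay between 330 and 332 and array medians between 85 and 96. In bulk liver, fewer cells of a type and less RNA per cell cannot be told apart. The hepatocyte marker sum over 6 genes (among them Alb and Cps1, all with signal) ranged from 31153 to 32528 in vehicle livers and from 26004 to 30945 with RG3487, so the sums did not overlap, and 1 of the 6 rose while 3 fell. The corresponding sums were 1440 to 1883 and 1215 to 1578 for 5 Kupffer cell markers (1 fell), 2168 to 2430 and 1813 to 2123 for 4 endothelial markers (1 fell), whose sums did not overlap either, and 1081 to 1424 and 1256 to 1424 for 6 stellate cell markers (4 tested, 1 rose). Sums overlapped between the groups for 2 bile duct markers (114 to 181 and 141 to 276, 1 tested), 2 lymphocyte markers (117 to 153 and 96 to 142), 2 red cell markers (2775 to 4105 and 2616 to 3483) and the neutrophil marker S100a9 (15 to 42 and 17 to 44, too dim to be tested), and none of those tested passed. No marker measured was at 0 on all arrays. The part of these marker differences in the results below was not tested.

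Nupr1 was the member with the largest group difference. Its signal (probe set 1367847_at) was 490, 378, 469, 503 and 331 in vehicle rats 1 to 5, and 139, 115, 86, 86 and 154 in RG3487 rats 1 to 5. Every RG3487 liver lay below every vehicle liver, and the lowest vehicle value, 331, was well clear of the highest RG3487 value, 154. The means were 434 ± 76 (SD, n = 5) and 116 ± 31 (SD, n = 5), a log2 difference of -1.78 ± 0.19 (SE), or 3.44-fold lower on that scale. The ratio of the mean signals themselves was 3.74. Only 10 of the 15859 probe sets had a lower log2 difference. Leaving out any 1 array kept the difference between -1.88 and -1.70.

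Ddit3 encodes CHOP, a C/EBP-family factor that ATF4 induces and that promotes cell death when stress persists. Its signal (probe set 1369590_a_at) was 69, 75, 62, 79 and 70 in the vehicle rats and 49, 49, 54, 53 and 45 in the RG3487 rats. The groups again did not overlap, and the spread within each was small. Means were 71.0 ± 6.4 (SD, n = 5) and 50 ± 3.6 (SD, n = 5), with a log2 difference of -0.40 ± 0.06 (SE), 1.32-fold lower. With each array left out in turn the difference ranged from -0.44 to -0.36. All signals of Ddit3 were below the median of every array, the medians being between 85 and 96. Its log2 difference moved with the pseudocount, from -0.50 at 1 to -0.24 at 64.

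**Figure D1:**
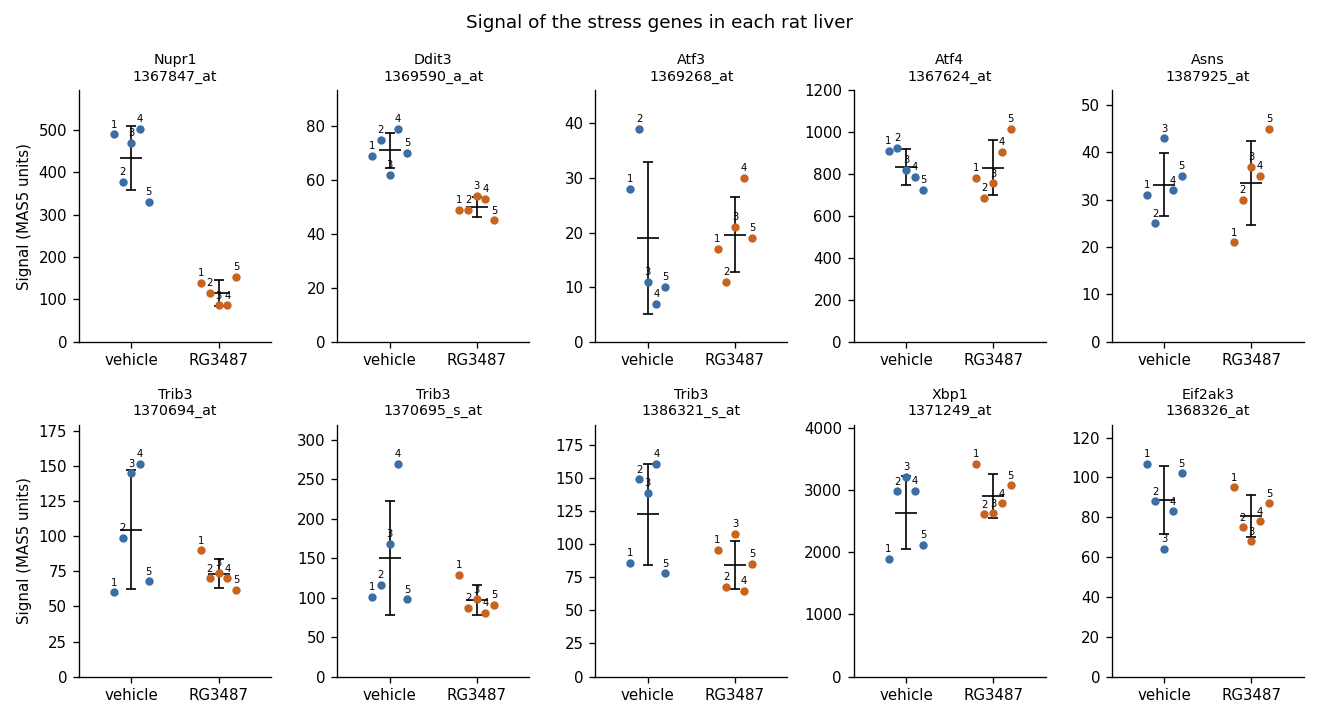
Signal (linear MAS5 units, y axis from 0, a scale of its own in each panel) of the 10 probe sets in 5 vehicle (blue) and 5 RG3487 (orange) livers, with points numbered by rat and black bars for the mean ± SD. The groups are apart in the panels of Nupr1 and Ddit3 and overlap in the other 8.

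Trib3 encodes a pseudokinase induced by ATF4 and CHOP that feeds back on ATF4 and on insulin signalling through AKT. It was read by 3 probe sets, of which the 2 with the suffix _s can bind more than 1 transcript. The first, 1370694_at, gave 60, 99, 145, 152 and 68 in vehicle rats and 90, 70, 74, 70 and 62 with RG3487. Vehicle rats 2, 3 and 4 were above all 5 RG3487 rats, while vehicle rat 5 lay within their range and vehicle rat 1 below it. The second, 1370695_s_at, gave 101, 116, 168, 270 and 98 against 129, 87, 98, 81 and 91. The third, 1386321_s_at, gave 86, 149, 139, 161 and 78 against 96, 68, 108, 65 and 85. All 3 probe sets ordered the vehicle animals in much the same way, with rat 4 the highest of all 10 animals in 3 of 3. The log2 differences were -0.37 ± 0.25, -0.48 ± 0.27 and -0.44 ± 0.22 (SE, n = 5 per group), and the mean over the probe sets differed by -0.43 ± 0.23. Without vehicle rat 4 they were nearer 0, at -0.23, -0.26 and -0.34, and with any other array left out they reached as low as -0.52, -0.59 and -0.57. The vehicle spread was wide, with a highest signal 2.53, 2.76 and 2.06 times the lowest, against 1.45, 1.59 and 1.66 times with RG3487.

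Atf4 itself, the central factor of the response, overlapped between the groups. The signal of 1367624_at was 913, 926, 821, 787 and 726 in vehicle livers and 784, 688, 757, 906 and 1017 with RG3487, so the RG3487 group held both the lowest and the highest value. Means were 835 ± 85 and 830 ± 131 (SD, n = 5 each), a log2 difference of -0.01 ± 0.12 (SE). Eif2ak3, encoding the kinase PERK (1368326_at), gave 107, 88, 64, 83 and 102 against 95, 75, 68, 78 and 87, with overlapping groups and a log2 difference of -0.11 ± 0.13. Single arrays moved it between -0.20 (without vehicle rat 3) and -0.05 (without vehicle rat 1).

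Xbp1, whose spliced mRNA encodes the transcription factor of the IRE1 branch (probe set 1371249_at), varied more among vehicle than among RG3487 rats. Vehicle livers gave 1890, 2982, 3213, 2986 and 2115, and RG3487 livers gave 3428, 2608, 2627, 2790 and 3077. Vehicle rats 1 and 5 were the 2 lowest of all 10 animals, and the other 3 vehicle rats lay within the RG3487 range. The log2 difference was 0.16 ± 0.17 (SE). With 1 array left out it ranged from 0.05 (without vehicle rat 1) to 0.24.

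Asns, the asparagine synthetase gene and a classic ATF4 target, and Atf3, a stress-induced bZIP factor gene, were dim. Their mean log2 signals placed both in the dimmest 25% of the table, so 8 of the 10 probe sets entered the fit across the array. Asns (1387925_at) gave 31, 25, 43, 32 and 35 in vehicle livers and 21, 30, 37, 35 and 45 with RG3487, a log2 difference of 0.00 ± 0.15. Atf3 (1369268_at) gave 28, 39, 11, 7 and 10 against 17, 11, 21, 30 and 19, a difference of 0.09 ± 0.27. Neither separated the groups. For Atf3 the value ran from -0.04 without vehicle rat 4 to 0.27 without vehicle rat 2.

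Of the 10 probe sets, 2 had groups that did not overlap, both lower with RG3487, and 8 overlapped. Over all 15859 probe sets, 3.7% were lower with no overlap and 10.9% were higher with no overlap, and since the members were chosen from this contrast nothing is read from their share. Of the differences of the 10 probe sets, 7 lay below 0, among them the 3 of Trib3, and 3 above. Their median was -0.24, where the median of all 15859 was 0.06. Trib3 enters that member median with each of its 3 probe sets, so nothing is read from it either.

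The members' differences depended on how the arrays were scaled. The median difference of the 7727 genes tested was 0.09 as deposited and 0.29 when arrays were scaled to 18 hybridization control probe sets, whose targets are bacterial and phage transcripts put into every hybridization mix. Nupr1 was at -1.88 with quantile normalization, -1.86 with arrays centred on their median and -1.59 with control scaling, and Ddit3 at -0.44, -0.48 and -0.20. The 3 Trib3 probe sets stayed below 0 under each of these scalings. Atf4 (0.18) and Eif2ak3 (0.09) lay above 0 with control scaling, as did Asns (0.20), which was at -0.08 when centred. Xbp1 lay above 0 in each case (0.20, 0.08 and 0.36), as did Atf3 (0.08, 0.01 and 0.28). Relative to the median of the genes as deposited, Nupr1 was at -1.88, Ddit3 at -0.49, Atf4 at -0.11 and Eif2ak3 at -0.20. Control scaling shifts all genes of an array by the same amount, so it cannot change these relative figures. With quantile normalization they were -1.90, -0.46, -0.09 and -0.20.

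**Figure D2:**
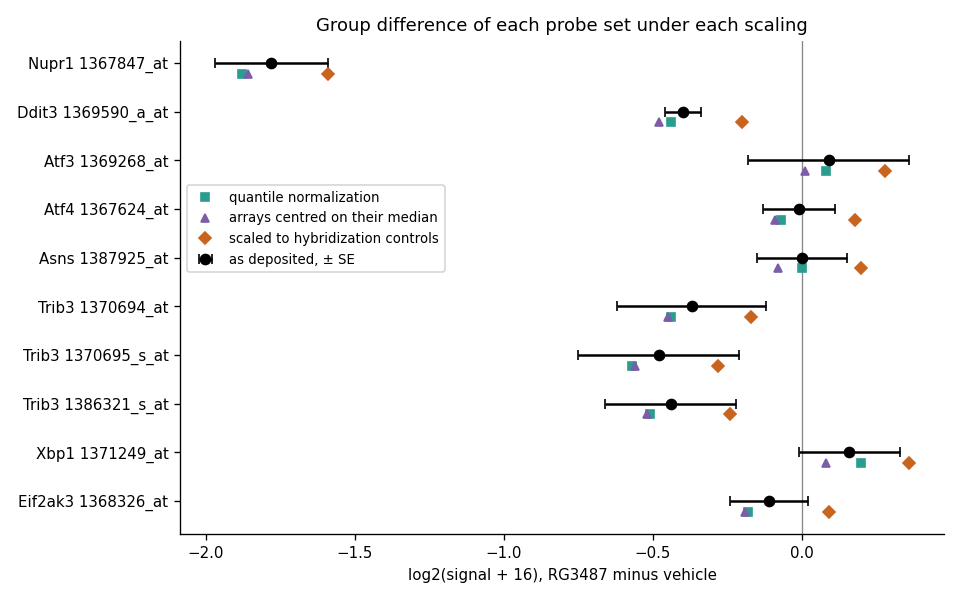
Log2 difference (RG3487 minus vehicle, of signal + 16) of each probe set as deposited (black, ± SE, 5 rats per group) and under 3 other scalings (coloured). Nupr1 lies between -1.88 and -1.59 under these scalings, and the Ddit3 and Trib3 probe sets lie below 0. Atf4, Asns and Eif2ak3 lie on both sides of 0, and Xbp1 and Atf3 lie above it.

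The genes whose profile was nearest to that of Nupr1 were found among 7721 genes by the root mean square difference over the 10 arrays, each gene being set to 0 at its vehicle mean on the log2 scale. They were Rab30 (0.28), a small GTPase gene, Angptl4 (0.29), encoding an inhibitor of lipoprotein lipase, Nim1k (0.38), a kinase gene, Cyp17a1 (0.43), a steroid hydroxylase gene, and Nr0b2 (0.44), encoding the nuclear receptor SHP. Since the search picks genes that were lower with RG3487 by a like amount, their differences are given without a test. Rab30 went from 861 ± 244 to 244 ± 63 (SD, n = 5 per group) and Angptl4 from 1422 ± 309 to 457 ± 116. RG3487 rat 3 had the lowest value of both (153 and 261) and shared the lowest of Nupr1 (86). Its values for Nim1k (54), Cyp17a1 (208) and Nr0b2 (100) were not the lowest of the group. Nim1k was at 173 ± 25 and 51.2 ± 14, Cyp17a1 at 641 ± 189 and 178 ± 56, and Nr0b2 at 331 ± 125 and 119 ± 42. None of the 5 is among the other genes of the ATF4 or unfolded protein lists described here.

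**Figure D3:**
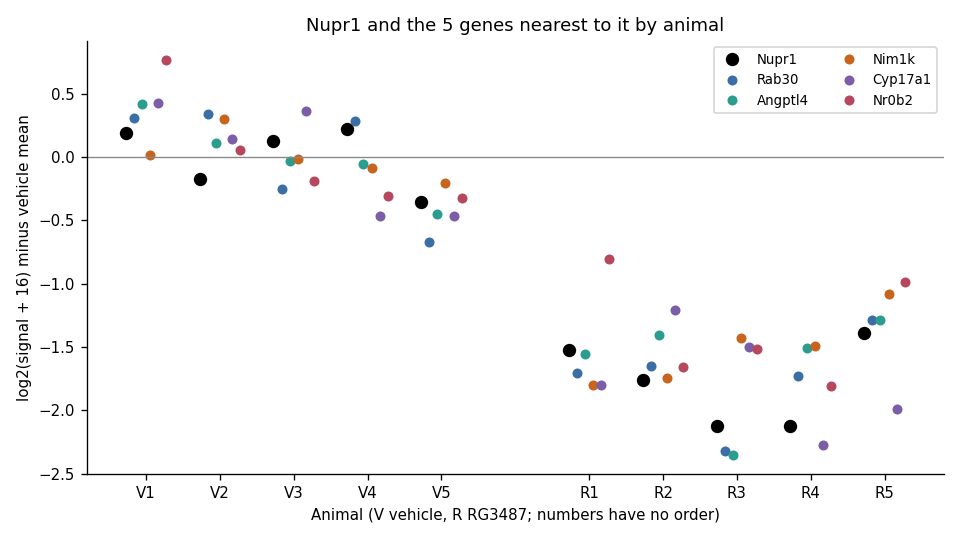
Log2(signal + 16) minus the vehicle mean (y axis) of Nupr1 (black) and the 5 genes nearest to it (colours) in each animal (x axis, V vehicle and R RG3487, 5 rats each). All 6 genes lie below -0.5 in each RG3487 liver. Among the animals, Nupr1 has its own lowest values in RG3487 rats 3 and 4, where other genes of the 6 can lie lower.

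Other ATF4 target genes, taken from a list without the members, split in direction. Across the array 22.3% of 7727 genes rose and 7.4% fell at an adjusted p under 0.05 (limma, Benjamini-Hochberg over 11894 probe sets). The balance of those calls depended on scaling: 75.1% of called genes were higher as deposited, 56.5% with quantile normalization, 53.4% with arrays centred and 94.8% with control scaling. Of 18 ATF4 targets tested out of 30 listed, 4 rose and 5 fell (22.2% and 27.8%). Their median was 0.07, against 0.09 for all genes. With control scaling 10 were higher and 2, Chac1 and Fgf21, lower, where 4538 of all 7727 genes were higher and 250 lower. With arrays centred 2 were higher and 6 lower (992 and 867 of all genes). Quantile normalization gave 3 higher and 6 lower (1018 and 783 of all genes).

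Chac1, which encodes a glutathione-degrading enzyme, was at 178, 117, 58, 68 and 49 in vehicle rats and at 30, 30, 60, 17 and 37 with RG3487. It fell by 1.04 ± 0.29 (SE) on the log2 scale (adjusted p = 0.0193), although RG3487 rat 3 lay within the vehicle range. Fgf21, encoding a hormone of the fasting and stress response, was at 196, 173, 111, 112 and 128 against 71, 80, 70, 59 and 137. RG3487 rat 5 stood above 3 vehicle rats, and the fall was 0.70 ± 0.20 (log2 difference -0.70, adjusted p = 0.0192). Past the naming rule, and so chosen with their values in view, were 3 further genes that fell: Slc38a2, an amino acid transporter gene (-0.81 ± 0.26, adjusted p = 0.0366), Sesn2, a regulator of mTORC1 (-0.59 ± 0.18, adjusted p = 0.0273), and Ppp1r15a, encoding the GADD34 subunit that directs dephosphorylation of eIF2 (-0.32 ± 0.11, adjusted p = 0.0409). Vehicle rat 1 had the highest signal of all 10 animals in 5 of these 5 genes, which was not so for Trib3, where it was vehicle rat 4. Without vehicle rat 1, Chac1 was at -0.81 (adjusted p = 0.0328) and Fgf21 at -0.59 (0.0442), whereas Slc38a2 (0.0531), Sesn2 (0.0621) and Ppp1r15a (0.0912) no longer passed. Sesn2 also missed the threshold without vehicle rats 3 or 5 (0.0562 and 0.0511). Slc38a2 kept the call in the removals of RG3487 rat 5 and vehicle rats 3 and 5, and had an adjusted p of 0.0531 to 0.0793 in the other 7. Ppp1r15a kept it in those of RG3487 rat 5 and vehicle rat 5, with 0.0529 to 0.0952 in the other 8. With control scaling the adjusted p was 0.0522 for Slc38a2, 0.0593 for Sesn2 and 0.31 for Ppp1r15a, and with robust eBayes it was 0.0757 for Slc38a2. The lower count of the list was 3 in the removals of RG3487 rats 1, 2 and 4 and vehicle rats 1 to 4.

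Slc3a2, the heavy chain shared by several amino acid transporters, was at 584, 677, 515, 553 and 498 in vehicle livers and 830, 852, 653, 897 and 947 with RG3487. Only RG3487 rat 3 lay within the vehicle range, and the gene rose by 0.55 ± 0.10 (adjusted p = 0.00277). Xpot, the tRNA exporter gene, rose by 0.43 ± 0.11 (adjusted p = 0.0133), from 205 ± 27 to 282 ± 39 (SD, n = 5 per group). Shmt2, of mitochondrial serine use (0.23 ± 0.08, adjusted p = 0.0418), and Cth, of cysteine synthesis (0.26 ± 0.08, adjusted p = 0.0359), also rose and are named after their values were seen. Both lost the call in 7 of 10 removals of 1 array: Shmt2 in all but those of RG3487 rat 1 and vehicle rats 1 and 2 (adjusted p = 0.0577 to 0.1), and Cth in all but those of RG3487 rats 4 and 5 and vehicle rat 5 (0.052 to 0.081). Both also lost it with arrays centred (0.163 for Shmt2 and 0.188 for Cth) and without the variance trend (0.0557 and 0.0547), and Shmt2 with quantile normalization (0.104) and with no filter (0.0501). The higher count was 2 without RG3487 rats 2 or 3 or vehicle rats 3 or 4.

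**Figure D4:**
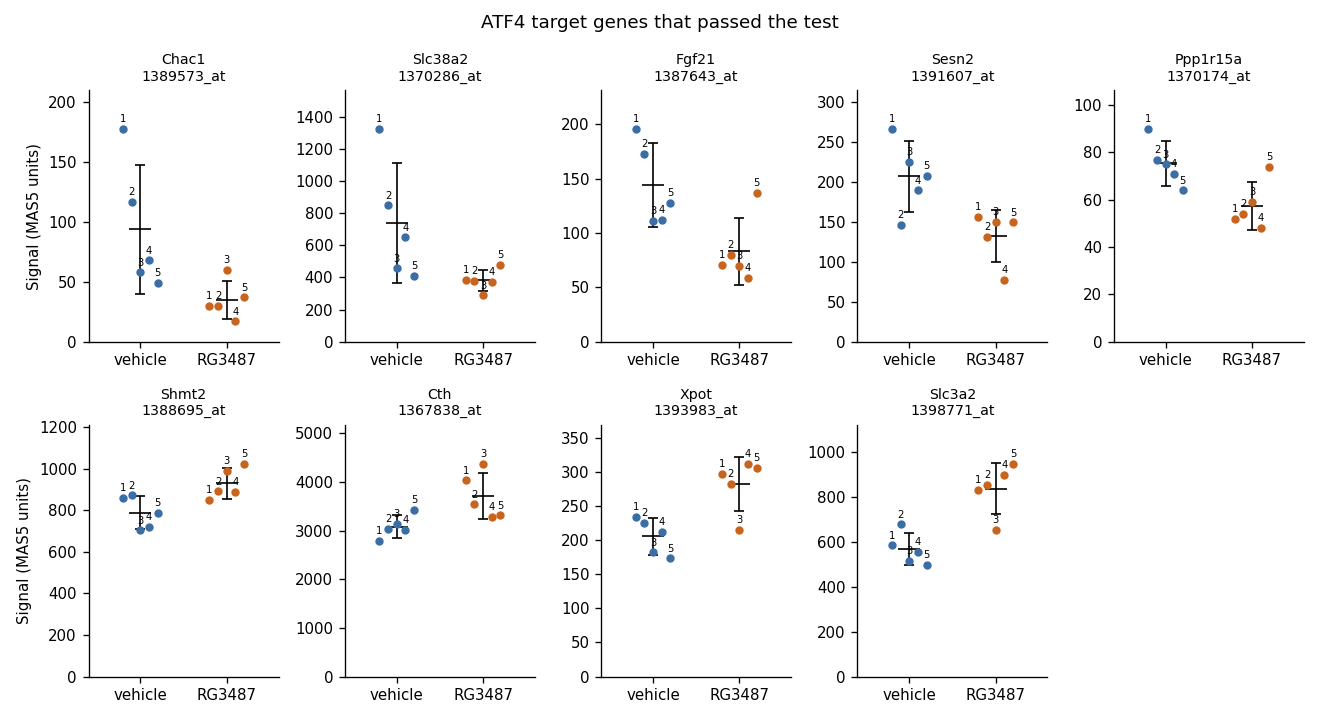
Signal (linear MAS5 units, y axis from 0, a scale of its own in each panel) of the 9 ATF4 target genes that passed the test, in 5 vehicle (blue) and 5 RG3487 (orange) livers numbered by rat, with black bars for the mean ± SD. In the 5 genes that fell, vehicle rat 1 is the highest point, and in Slc3a2 and Xpot RG3487 rat 3 is the lowest of its group.

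The aminoacyl-tRNA synthetases, which load tRNAs with amino acids and many of which ATF4 induces, rose in most cases. All 12 listed were tested, 8 rose and 0 fell (66.7%, beside the 22.3% of all genes), also 0 lower and 9 higher at an unadjusted p under 0.05, and their median of 0.37 compares with 0.09 for all genes. Iars1 was at 177, 169, 127, 159 and 114 in vehicle livers and 245, 223, 208, 237 and 281 with RG3487, without overlap (0.64 ± 0.12, adjusted p = 0.00228). Mars1 went from 291 ± 19 to 405 ± 54 (SD, n = 5 per group), also without overlap (0.45 ± 0.09, adjusted p = 0.00359). The count was 5 with quantile normalization, 7 with arrays centred and 11 with control scaling, and 0 were lower in each. It was also 5 without RG3487 rat 4.

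In the list of eIF2, its exchange factor eIF2B, the eIF2 kinases and their regulators, 7 of 14 tested rose (50%, beside 22.3% of all genes) and 1 fell (7.14%, beside 7.4%). Those that rose were Eif2s1, Eif2s2, Eif2s3, Eif2b2, Eif2b4 and Eif2b5, which encode subunits of eIF2 and eIF2B, and Gcn1, encoding the activator of GCN2, whose call was lost without RG3487 rat 2 (adjusted p = 0.0536), with arrays centred (0.0726) and with quantile normalization (0.0506). Eif2b5 also missed the threshold with quantile normalization (0.0583). Eif2s1, the subunit that the stress kinases phosphorylate, was at 468, 457, 460, 463 and 379 in vehicle livers and at 655, 572, 553, 679 and 774 with RG3487, with no overlap (0.52 ± 0.09, adjusted p = 0.00216). Eif2b4 went from 234 ± 17 to 315 ± 28 (SD, n = 5 per group; 0.40 ± 0.08, adjusted p = 0.00257). The median of the list was 0.23, against 0.09 for all genes. The kinase genes Eif2ak1 (-0.12 ± 0.08, HRI), Eif2ak2 (0.13 ± 0.13, PKR) and Eif2ak4 (0.16 ± 0.16, GCN2), named after their values were seen, did not pass (adjusted p = 0.294, 0.508 and 0.489), and the 1 lower gene was Ppp1r15a, described above.

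The list of the XBP1 and ATF6 arm held chaperones, folding enzymes and degradation factors of the endoplasmic reticulum, with translocon and coat genes. It also held the sensor and activation genes Atf6, Atf6b, Creb3l3, Mbtps1 and Mbtps2. Of 29 tested, 5 fell (17.2%, beside 7.4% of all genes) and 0 rose (beside 22.3%). At an unadjusted p under 0.05 in limma, 3 were higher and 7 lower. The median was -0.10, against 0.09 for all genes. With control scaling the list median was 0.09, against 0.29 for all genes, with 7 higher and 4 lower. Under that scaling 4538 of all 7727 genes were higher and 250 lower. With arrays centred the list median was -0.18, against 0.02 for all genes, with 0 higher and 8 lower. Quantile normalization gave -0.14, against 0.02, with 0 higher and 6 lower. Pdia6, a disulfide isomerase gene, was at 1768, 1764, 1592, 1922 and 1733 in vehicle livers and 1488, 1272, 1243, 1237 and 1198 with RG3487, without overlap (-0.44 ± 0.07, adjusted p = 0.000862). Sdf2l1, an endoplasmic reticulum protein gene, went from 414 ± 43 to 273 ± 38 (SD, n = 5 per group; -0.58 ± 0.10, adjusted p = 0.0016). The other 3, named after their values were seen, were the degradation genes Sel1l (-0.48 ± 0.08, adjusted p = 0.00171) and Edem1 (-0.54 ± 0.13, adjusted p = 0.00846), and Pdia4 (-0.30 ± 0.10, adjusted p = 0.0398). Pdia4 kept the call in the removals of RG3487 rat 1 and vehicle rats 3 and 5, and had 0.0614 to 0.0959 in the other 7 and 0.38 with control scaling and 0.0526 without the variance trend. Hspa5, the chief chaperone and a marker of this arm, was at -0.23 ± 0.08 and did not pass (adjusted p = 0.0603, named after its value was seen). Derl1, likewise named, was at 0.14 ± 0.05, higher without overlap, and also did not pass (adjusted p = 0.0522). Of the 29 differences, 24 lay below 0 and 5 above.

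**Figure D5:**
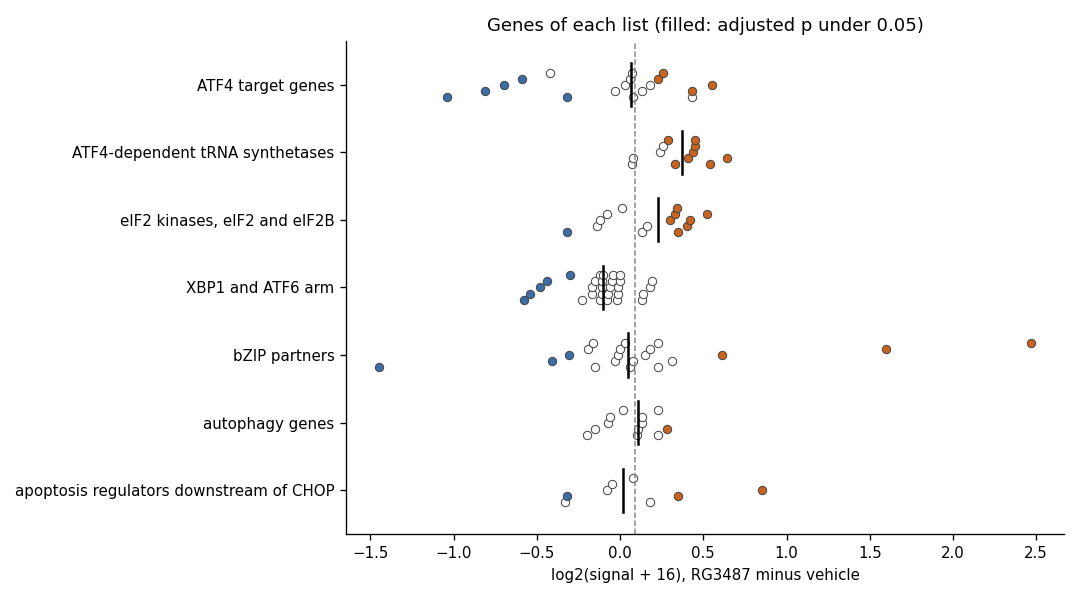
Log2 difference (RG3487 minus vehicle, of signal + 16, x axis) of each gene tested in 7 lists without the members. Filled points passed the test (orange higher, blue lower), black bars are list medians and the dashed line is the median of all genes at 0.09. The tRNA synthetase points all lie above 0, while the ATF4 targets lie on both sides.

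Among bZIP factors, the family with which ATF4, ATF3 and CHOP can dimerise or share sites, 3 of 20 tested rose and 3 fell (15% each, beside 22.3% and 7.4% of all genes). Nfe2l2, encoding NRF2, went from 663 ± 100.5 to 2033 ± 115 (SD, n = 5 per group; 1.60 ± 0.09, adjusted p = 2.5e-06), and Dbp, a clock output gene, from 46.0 ± 21.8 to 363 ± 195 (2.47 ± 0.38, adjusted p = 0.000854). Nfil3, a repressor of clock output genes, was at 207 ± 52 and 67.2 ± 28.8 (-1.45 ± 0.21, adjusted p = 0.000558). Crem changed by -0.41 ± 0.10 (adjusted p = 0.0124), but with control scaling it missed the threshold (0.0714; range over alternatives 0.00775 to 0.0714). The other 2 called, Tef (0.61 ± 0.17, adjusted p = 0.0203) and Maf (-0.31 ± 0.10, adjusted p = 0.0371), are named after their values were seen. Tef lost the call without RG3487 rats 2, 4 or 5 (0.0501, 0.0502 and 0.0511) and with quantile normalization (0.0544). Maf kept the call in the removals of RG3487 rats 1 and 3 and vehicle rat 1, and had 0.0527 to 0.0848 in the other 7. It also lost the call with control scaling (0.315) and with its probe sets averaged (-0.18, 0.0985). The C/EBP partners Cebpb (-0.03 ± 0.30) and Cebpg (0.03 ± 0.08) did not pass (adjusted p = 0.953 and 0.766, named after their values were seen).

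Of 12 autophagy genes, several of which ATF4 and CHOP can induce, 1 rose (8.33%, beside 22.3% of all genes) and 0 fell (beside 7.4%), with 3 higher and 1 lower at an unadjusted p under 0.05 in limma. It was Atg3 (0.28 ± 0.07, adjusted p = 0.0134), which missed the threshold when arrays were centred (0.054; range over alternatives 0.000354 to 0.054). The higher count was 3 without RG3487 rat 3. Of 8 apoptosis regulators downstream of CHOP, 2 rose and 1 fell (25% and 12.5%, beside 22.3% and 7.4% of all genes). Casp12, a caspase gene of the endoplasmic reticulum, was at 41, 66, 66, 34 and 60 in vehicle livers and 72, 118, 117, 90 and 149 with RG3487 (0.85 ± 0.18, adjusted p = 0.00545). Bid, a death agonist of the BCL2 family, went from 214 ± 26 to 276 ± 24 (SD, n = 5 per group; 0.35 ± 0.09, adjusted p = 0.0148), and did not pass with quantile normalization (0.09) or arrays centred (0.0614; range 0.000574 to 0.09). The 1 that fell was Ppp1r15a.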

How the data were processed

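The deposited table holds 1 linear signal intensity per probe set and array, in whole numbers, made by the authors with MAS5 per the submitters' processing notes. The array means of the deposited intensities are nearly equal. No source used here states the MAS5 version or the scaling target, and detection calls were not used. Labelling started from 1 ug of RNA per the labels. The number of arrays limits the precision.

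Probe sets were named through the platform annotation (12562 with 1 symbol, 332 with several, 2965 with none) and the Entrez identifier, and 0 symbols changed. Signals were analysed as log2(signal + 16). After 40 controls and the dimmest 25% were left out, 11894 probe sets were fitted with limma 3.58.1 in R 4.3.3 (lmFit, eBayes with trend, two-sided, Benjamini-Hochberg adjusted p under 0.05). A gene was its brightest retained probe set. The fit was also run on simulated data with independent noise for each probe set, whose outcome is not given here. Members' SE came from the group variances. The members and gene lists were chosen with earlier results of these data known. Genes named were the members, up to 2 called genes per direction and list with the smallest p, the 5 nearest to Nupr1, and others marked as named after their values were seen. Alternatives were other pseudocounts, scalings, filters and eBayes settings, probe set averaging, the rat number as a block and each array left out; scaling to hybridization controls was added after seeing the data. That scaling assumes equal amounts added, for which no record was at hand: the controls averaged 9.90 in vehicle and 9.71 in RG3487 arrays on the log2 scale and were lower in 18 of 18. Rat numbers pair no animals: the labels give 10 separate rats, and deviations of same-numbered rats correlated between -0.0371 and 0.174.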

Additional observations from a re-analysis of the deposited data

Results flagged for a closer look

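In the groups of 5 rats, 1 value of 7 genes stood apart from the other 4 by Dixon's ratio (critical value 0.71), among 66 groups checked; chance gives about 1 in 20. None of the 20 groups of the members did. The values were 137 for Fgf21 in RG3487 rat 5 (highest), 379 for Eif2s1 in vehicle rat 5 (lowest), 1488 for Pdia6 in RG3487 rat 1 (highest), 338 for Sdf2l1 in vehicle rat 3 (lowest), 117 for Nfil3 in RG3487 rat 3 (highest), 168 for Bid in vehicle rat 1 (lowest) and 548 for Nr0b2 in vehicle rat 1 (highest).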

How the results depend on the processing

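Counts over all probe sets were 2443 higher and 852 lower. They became 1359 and 1335 with arrays centred, 6683 and 354 with control scaling, and 1418 and 1195 with quantile normalization. Counts not given in this section stayed within a ratio of 1.5 of the main count. With control scaling 4538 of all 7727 genes were higher and 250 lower. Under it the lists gave 10 higher and 2 lower of 18 ATF4 targets and 0 lower of 14 eIF2 genes. They gave 7 higher of 29 XBP1 and ATF6 genes and 9 higher and 1 lower of 20 bZIP factors. They also gave 8 higher of 12 autophagy genes, and 4 higher and 0 lower of 8 apoptosis regulators. With arrays centred, 2 ATF4 targets, 0 autophagy genes and 1 apoptosis regulator were higher, and 8 XBP1 and ATF6 genes and 1 autophagy gene lower. Quantile normalization gave 5 higher tRNA synthetases and 1 higher apoptosis regulator. With the dimmest 50% left out, 3 ATF4 targets, 0 eIF2 genes and 0 apoptosis regulators were lower, and 1 XBP1 and ATF6 gene and 1 apoptosis regulator higher. Without the trend 2 ATF4 targets were higher, and averaged probe sets gave 2 higher and 1 lower autophagy gene. With the replicate block, 2 ATF4 targets and 2 autophagy genes were higher, and 0 eIF2 genes and 0 apoptosis regulators lower; 2 of 5 rats correlated best with their own number. With 1 array left out, counts ranged from 2 to 4 higher and 3 to 5 lower ATF4 targets, and from 5 to 9 higher tRNA synthetases. The XBP1 and ATF6 genes ranged from 0 to 1 higher and from 4 to 7 lower. There were 0 to 1 lower eIF2 gene, 1 to 3 higher autophagy genes and 0 to 1 lower apoptosis regulator. The cause of these shifts was not tested. None of the genes named in the report as having passed the test changed sign under these alternatives, and other genes were not compared one by one. Among them, the replicate block ended the calls of Ppp1r15a (adjusted p = 0.0816), Shmt2 (0.0769), Cth (0.0584) and Maf (0.0518). Of the members' 160 values under alternatives, 5 moved by more than 1 SD between rats: Nupr1 with a pseudocount of 64 (-1.47), Ddit3 with pseudocounts of 1 and 64 and control scaling, and Atf4 with control scaling. Signals near the background, as for Asns and Atf3, limit what can be seen.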
